A study of Mus musculus with 2 samples.

Results

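Blood vessels of the retina are lined by endothelial cells and wrapped by mural cells (pericytes on capillaries, smooth muscle cells on arterioles). The transcripts described here are 42 genes that serve as markers or effectors of these cells. They were chosen by name, with their read counts in these libraries already known, and 38 of them are among the 13549 genes of the deposited table. Of the 42, 27 were grouped as pan-endothelial, 6 as blood-retina barrier and 9 as mural (pericyte or smooth muscle) genes. *Ramp2*, *Dll4*, *Slco1a4* and *Acta2* are not analysed here, and the smallest total of a gene in the table used was 6 reads.

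The libraries came from retinas of CD11c-Cre-gfp;Rosa-TDTom mice at postnatal day 5, labelled as microglia, the resident macrophages of the retina. All animals carried both alleles: a Cre recombinase with GFP under control of the CD11c (integrin alpha X) promoter, and a TdTomato reporter that recombination switches on for good. The Cd11c-active library was made from 4041 sorted GFP+TdTom+ cells and the Cd11c-lineage library from 5441 sorted GFP-TdTom+ cells, out of 8 pooled retinas. The labels add 4 female and 4 male, without saying whether retinas or animals are counted. Both groups therefore had 1 library, the comparison has no replicate check, no test was possible, and no interval below measures the spread between animals or sorts. The model is limited by the driver, since any cell in which this promoter was ever active keeps TdTomato, and by pooling, since animals cannot be told apart.

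At this age the retinal vasculature is still growing outwards over the inner surface. Sprouts are led by tip cells that follow VEGF, Notch signalling between neighbouring cells limits how many tips form, and platelet-derived growth factor B from the endothelium recruits pericytes through its receptor PDGFRB. Retinal endothelium also matures into a barrier, with sealed junctions and selective transporters, under norrin and Wnt signals. In bulk RNA, fewer cells of a type and less RNA per cell cannot be told apart.

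The Cd11c-active library held 12943998 reads and the Cd11c-lineage library 13402625. The 12 microglia markers took 2.36% and 2.29% of these reads, and none of the 12 differed by 2-fold, so the labelled cell type was abundant in both libraries. Read numbers varied between the libraries far more than independent reads would. This was measured across 1978 genes whose total was at least 800 and under 1600 reads, with some in each library. Their log2 ratio had a robust SD of 0.794, from the median absolute deviation, which gives the tails little weight. The square of that SD was 80.3 times the median counting variance. Folds divide the Cd11c-active level by the Cd11c-lineage level. TMM scaling was used, and it moved every log2 ratio up by 0.14 against scaling to library totals. Folds are mostly given with its 95% counting interval and, where both libraries had reads, with a widened interval from reads divided by 80.3. For a gene at 0 reads in 1 library the fold is a bound against a floor of 3 reads in that library, which leaves out the counting error of the other library. The exact counting interval starts lower, for example at 558-fold where the floor gives 686 (*Sparcl1*) and at 3.16-fold where it gives 4.55 (*Kcnj8*).

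In Cd11c-lineage 14 of the 25 measured pan-endothelial genes and 4 of the 5 measured barrier genes had no read, beside 12.2% of all listed genes. Since every gene of the table had at least 6 reads in total, a gene at 0 there must have reads in Cd11c-active. The 38 measured members summed to 31748 Cd11c-active reads (0.245% of the library; Wilson 95% interval 0.243 to 0.248) and 11235 Cd11c-lineage reads (0.0838%; 0.0823 to 0.0854), a 3.22-fold difference (counting 3.15 to 3.29; widened 2.64 to 3.92). *Cd34* alone gave 6392 and 6017 of these reads, and without it the sums were 25356 and 5218 reads, 5.53-fold (widened 4.22 to 7.34). With 20 reads over both libraries as the minimum, 37 members could be compared: 30 were at least 2-fold higher in Cd11c-active, 3 at least 2-fold lower, and 4 lay within 2-fold. Over all 13037 genes meeting that minimum, 23.3% were at least 2-fold higher and 21.6% at least 2-fold lower. Counting a gene at 0 reads as 3 reads, the median log2 ratio was 6.34 for pan-endothelial, 5.61 for barrier and 3.85 for mural members, beside a median of 0.01 over all genes compared. The members were chosen on this same comparison, so their counts describe the choice and support nothing further.

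**Figure D1:**
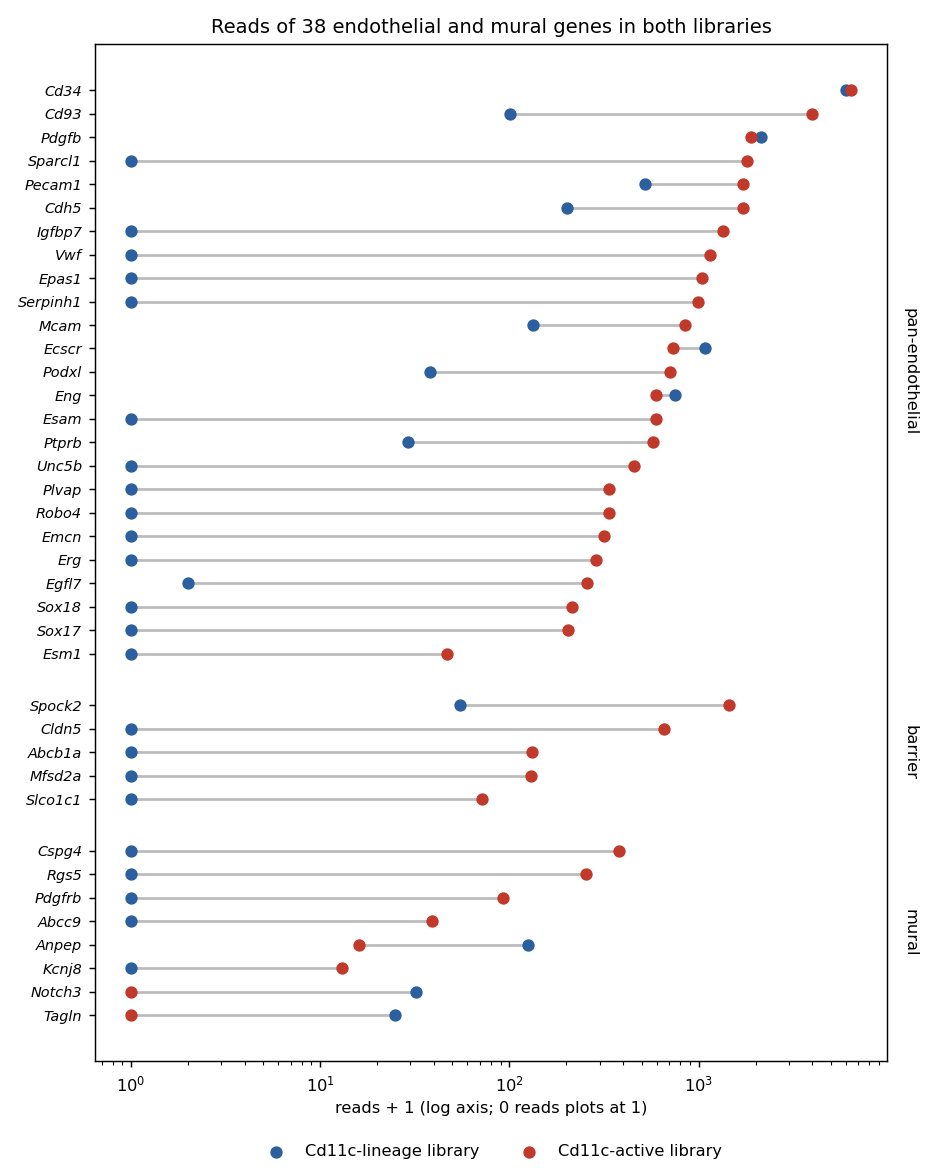
Reads of the 38 measured members in the Cd11c-active library (red) and the Cd11c-lineage library (blue), by class, on a log axis of reads plus 1 (n = 1 library per group, no error bars). Most pan-endothelial and all barrier genes lie far to the right in Cd11c-active, *Cd34*, *Pdgfb*, *Ecscr* and *Eng* have nearly coinciding points, and *Anpep*, *Notch3* and *Tagln* have more reads in Cd11c-lineage.

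In Cd11c-lineage 23 of the 38 members had 0 reads, against 12.2% of all listed genes, and in Cd11c-active 2 had 0 reads, against 11.8%. How often a gene reads 0 in Cd11c-lineage depended on its total over both libraries. It did so in 40.8% of all genes with at least 20 and under 100 reads, 15.8% from 100 to under 200, 4.73% from 200 to under 400, 1.14% from 400 to under 800, 0.252% from 800 to under 1600 and 0.0914% at 1600 or more. The members at 0 in Cd11c-lineage numbered 4 of 6, 2 of 3, 8 of 9, 3 of 5, 4 of 7 and 1 of 7 in the same ranges. The member at 0 among the best-measured ones was *Sparcl1*, and the 4 in the range below were *Igfbp7*, *Vwf*, *Epas1* and *Serpinh1*. The lower bounds of folds printed for such genes assume independent reads. After division by 80.3 the lower end of the widened interval lay above equal reads for 9 of the 23 members at 0, from 1.04-fold for *Cspg4* to 6.54-fold for *Sparcl1*. For the other 14, among them *Plvap*, *Emcn* and *Erg* at 0.751 and *Rgs5*, *Sox18* and *Sox17* at 0.470, it included equal reads.

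**Figure D2:**
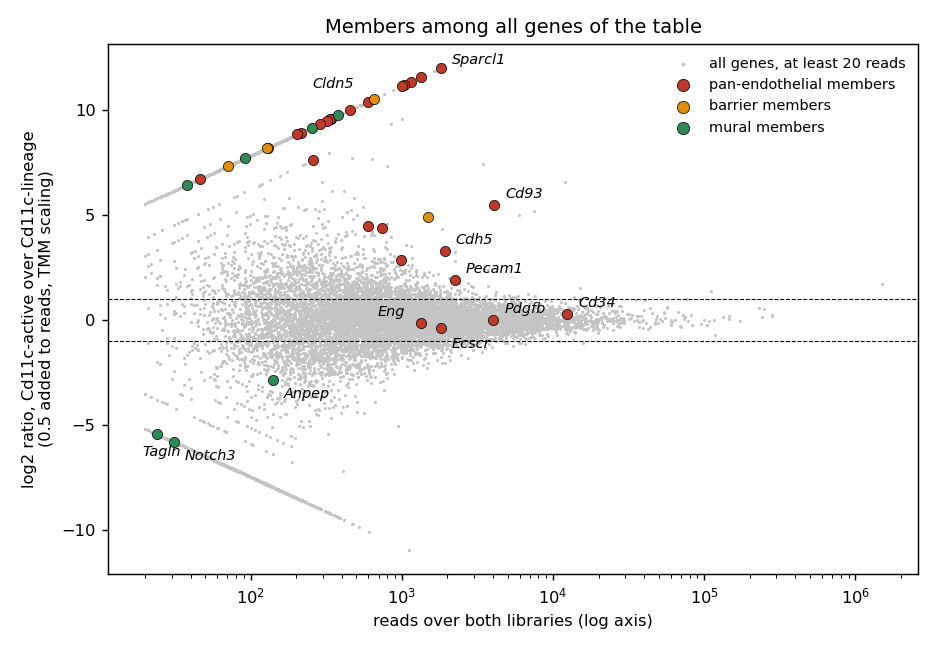
Log2 ratio of Cd11c-active over Cd11c-lineage (0.5 added to reads, TMM scaling) against reads over both libraries (log axis) for all genes having 20 reads or more (grey) and the members by class; dashed lines mark 2-fold. The slanted edges are genes with 0 reads in 1 library, and members with 0 reads in Cd11c-lineage lie along the upper edge up to *Sparcl1*, which had 1809 reads in Cd11c-active.

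Promoter sequences of 5 members are shown because they stand on both sides of the main contrast: the endothelial gene *Emcn*, the barrier gene *Cldn5* and the pericyte gene *Rgs5* had 0 reads in Cd11c-lineage, while *Cd34* and *Eng* had similar reads in both libraries. Each is the 250 bases before the gene's start, 5′ to 3′ on the gene's strand, from RefSeq on GRCm38.p6. That build is older than the GRCm39 named in the submitters' processing notes. Capitals mark the letters AGGAAG or their reverse complement CTTCCT, the core that ETS factors such as ERG bind in many endothelial genes. The windows, all on the plus strand, are chr3:137340828-137341077 for *Emcn*, chr16:18776597-18776846 for *Cldn5*, chr1:169655251-169655500 for *Rgs5*, chr1:194938571-194938820 for *Cd34* and chr2:32646345-32646594 for *Eng*.
Emcn: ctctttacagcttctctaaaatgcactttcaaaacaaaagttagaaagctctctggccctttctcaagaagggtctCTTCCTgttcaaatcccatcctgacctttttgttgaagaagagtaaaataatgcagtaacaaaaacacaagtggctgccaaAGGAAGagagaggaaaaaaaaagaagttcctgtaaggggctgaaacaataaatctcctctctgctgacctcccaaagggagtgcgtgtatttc
Cldn5: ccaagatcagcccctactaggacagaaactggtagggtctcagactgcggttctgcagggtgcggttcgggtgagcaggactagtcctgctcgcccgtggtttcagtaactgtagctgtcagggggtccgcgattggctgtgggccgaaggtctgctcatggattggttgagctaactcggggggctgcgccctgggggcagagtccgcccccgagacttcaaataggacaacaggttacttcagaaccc
Rgs5: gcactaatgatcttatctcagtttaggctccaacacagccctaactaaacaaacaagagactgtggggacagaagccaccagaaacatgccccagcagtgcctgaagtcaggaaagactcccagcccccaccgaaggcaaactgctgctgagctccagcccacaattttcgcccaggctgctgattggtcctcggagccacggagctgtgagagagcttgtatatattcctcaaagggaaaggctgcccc
Cd34: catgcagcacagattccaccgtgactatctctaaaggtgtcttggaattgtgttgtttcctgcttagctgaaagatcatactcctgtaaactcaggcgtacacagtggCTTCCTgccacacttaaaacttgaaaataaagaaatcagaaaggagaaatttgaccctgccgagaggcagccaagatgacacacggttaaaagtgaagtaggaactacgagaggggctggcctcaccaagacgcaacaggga
Eng: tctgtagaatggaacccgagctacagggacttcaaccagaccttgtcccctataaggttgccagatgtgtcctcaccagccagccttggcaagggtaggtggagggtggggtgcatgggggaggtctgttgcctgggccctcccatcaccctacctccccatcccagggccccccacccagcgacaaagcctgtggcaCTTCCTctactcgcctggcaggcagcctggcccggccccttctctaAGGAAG

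The letters AGGAAG, searched on both strands, occurred in the windows of *Emcn* (2 matches), *Cd34* (1) and *Eng* (2) and in neither that of *Cldn5* nor that of *Rgs5*. The table held promoters for 25 of the 42 members in 29 windows, and 10 of these (34.5%) had the core, against 29.5% of all 32851 windows. The letters ACAAAG, a SOX core, were in 4 windows of members (13.8%) and in 16.5% of all windows. The letters CGGAAG, another ETS core, were in 0 windows of members and 13.6% of all windows, ACAATG (SOX) in 2 (6.90%) and 10.7%, and TATAAA, the box that positions the start of transcription, in 1 (3.45%) and 12.4%. A match is a description of the letters and shows no binding. Windows of members had a median GC content of 58.0%, and all windows 52.4%.

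Among the pan-endothelial genes, junction and surface proteins came first in reads. *Cdh5* (ENSMUSG00000031871), VE-cadherin of endothelial adherens junctions, had 1719 Cd11c-active and 201 Cd11c-lineage reads, a 9.73-fold difference (counting 8.41 to 11.3; widened 2.38 to 41.7). *Pecam1* (ENSMUSG00000020717), CD31 of the endothelial junction that leukocytes and platelets also carry, had 1725 and 523 reads, 3.75-fold (3.40 to 4.15; widened 1.40 to 9.51). *Cd93* (ENSMUSG00000027435), a lectin-domain receptor of endothelium and of some myeloid cells, had 3986 and 100 reads, 45.4-fold (37.2 to 55.9; widened lower end 9.75). These 3 had reads in both libraries, with more in Cd11c-active.

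*Esam*, an adhesion molecule of endothelial tight junctions, had 592 reads against 0 and was at least 225-fold higher. *Emcn*, the endothelial sialomucin endomucin, had 317 against 0 (at least 120-fold), and *Robo4*, an endothelial Roundabout receptor, 336 against 0 (at least 127-fold). *Plvap*, which forms the diaphragms of fenestrated and immature vessels and is lost as the barrier matures, had 337 against 0 (at least 128-fold). In all 4 the bound rests on a floor of 3 independent reads, while genes in the range of *Emcn*, *Robo4* and *Plvap* were at 0 in Cd11c-lineage in 4.73% of cases.

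Some surface genes kept a few reads in Cd11c-lineage. *Ptprb*, the phosphatase VE-PTP that restrains TIE2 and VE-cadherin, had 570 and 28 reads, 23.2-fold (15.9 to 35.2). *Podxl*, podocalyxin of the luminal surface, had 703 and 37, 21.6-fold (15.5 to 31). *Mcam*, CD146 of endothelium and mural cells, had 850 and 133, 7.27-fold (6.05 to 8.80; widened 1.37 to 58.1). The lower widened ends of *Ptprb* and *Podxl* were 1.64 and 2.25, and their upper ends were unbounded, since so few Cd11c-lineage reads round to 0 after the division.

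Not all pan-endothelial genes followed. *Cd34*, a sialomucin of endothelium and of blood progenitors, had 6392 and 6017 reads, 1.21-fold (counting 1.17 to 1.25; widened 0.875 to 1.69). *Eng*, the TGF-beta co-receptor endoglin, had 595 and 747, 0.906-fold (0.813 to 1.01; widened 0.280 to 2.67). *Ecscr*, an endothelial surface protein of chemotaxis, had 730 and 1079, 0.770-fold (0.700 to 0.847; widened 0.297 to 1.99). *Pdgfb*, the ligand that recruits pericytes and that macrophages also make, had 1894 and 2135, 1.01-fold (0.949 to 1.07; widened 0.559 to 1.82), and its log2 ratio turned from 0.01 to -0.12 under library totals.

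These 4 genes lay within 2-fold. They carried 9978 of the 11001 pan-endothelial reads of Cd11c-lineage and 9611 of the 28532 in Cd11c-active. The other 21 measured pan-endothelial genes, which are those past the 2-fold threshold, held the remaining 18921 and 1023 reads. The pan-endothelial sum over all 25 measured genes was 2.95-fold higher in Cd11c-active (counting 2.89 to 3.02; widened 2.41 to 3.62). Without *Cd34* the sums were 22140 and 4984 reads, 5.06-fold (widened 3.83 to 6.79). The 14 genes not listed as known from myeloid or other cells, *Vwf* among them, summed to 7204 and 1309 reads, 6.26-fold (widened 3.74 to 11.7).

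The 4 transcription factors of the set had no read in Cd11c-lineage. *Epas1*, the hypoxia-inducible factor HIF-2 alpha, which many cell types use, had 1038 reads in Cd11c-active (at least 394-fold). *Erg*, the ETS factor that maintains endothelial identity, had 286 (at least 108-fold). *Sox18* and *Sox17*, SOX factors of vessel and artery development, had 214 and 202 (at least 81.2-fold and 76.6-fold). Together they had 1740 reads against 0.

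A separate list holds 17 endothelial transcription factors. Of its 14 genes with at least 20 reads, 13 lay within 2-fold, 1 was higher (*Gata2*, 44 against 0 reads, named after its value was seen) and 0 were lower, beside 23.3% higher and 21.6% lower over all genes compared. Its median log2 ratio was 0.50, beside 0.01 over all genes compared, and its sums were 26650 and 27471 reads. The 3 with the most reads were *Mef2c* (5219 and 7947), *Klf2* (4637 and 3248) and the ETS factor *Elk3* (2492 and 2628). Macrophages express many of these factors as well as endothelium, and *Erg*, *Sox17* and *Sox18* are not on that list.

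Secreted vessel proteins were among the best-measured members without reads in Cd11c-lineage. *Sparcl1* (ENSMUSG00000029309), a matricellular glycoprotein also made by astrocytes and mural cells, had 1809 reads against 0, at least 686-fold. *Igfbp7* (ENSMUSG00000036256), an insulin-like growth factor binding protein of vessel walls, had 1342 against 0, at least 509-fold. *Vwf*, von Willebrand factor of endothelial storage granules and platelets, had 1143 against 0, at least 434-fold. *Egfl7*, an endothelial matrix protein, had 257 reads and 1 read, 292-fold with a counting interval of 52.0 to 11597 and a widened lower end of 0.470. *Serpinh1*, the collagen chaperone HSP47, works inside any collagen-secreting cell and had 994 against 0, at least 377-fold.

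*Vwf* is shared with platelets. The 3 measured genes of the 6 platelet markers summed to 38 Cd11c-active and 346 Cd11c-lineage reads (widened interval of the fold up to 1.72). *Itga2b*, which defines platelets and megakaryocytes, had 0 and 262, and *Treml1*, with 38 and 68, lay within 2-fold. The part of platelets in the *Vwf* reads was not tested.

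Of the genes that mark sprouting vessels, *Unc5b*, a netrin and Robo4 receptor of tip cells, had 455 reads against 0 (at least 173-fold). *Esm1*, endocan of tip cells, had 46 against 0 (at least 17.5-fold). With *Pdgfb* included, the 3 measured sprouting genes summed to 2395 and 2135 reads, 1.28-fold (widened 0.727 to 2.21). The sum therefore followed *Pdgfb*, whereas the other two were found in Cd11c-active alone.

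The barrier genes were seen almost only in Cd11c-active. The 5 measured members summed to 2426 reads (0.0187% of the library) and 54 (0.000403%), a 51.1-fold difference (counting 39.1 to 68.3; widened lower end 5.68). All 54 Cd11c-lineage reads belonged to *Spock2* (ENSMUSG00000058297), a testican proteoglycan enriched in brain and retinal endothelium, which had 1440 reads in Cd11c-active (30.3-fold; 23.1 to 40.6; widened 3.23 to 853). Without *Spock2* the sums were 986 and 0 reads, at least 374-fold.

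*Cldn5* (ENSMUSG00000041378), the main claudin of the barrier's tight junctions, had 655 reads against 0, at least 248-fold. *Abcb1a*, the efflux pump P-glycoprotein, had 131 against 0 (at least 49.7-fold), and its reads could be shared with its close paralogue *Abcb1b*. *Mfsd2a*, the lysophosphatidylcholine transporter that keeps transcytosis low, had 129 against 0 (at least 48.9-fold). *Slco1c1*, a thyroxine and organic anion transporter, had 71 against 0 (at least 26.9-fold). Thus junction, efflux, lipid and hormone transport genes of the barrier were all represented in Cd11c-active. These bounds assume independent reads. The lower end of the widened interval lay above equal reads for *Cldn5* (1.94-fold). It was 0.214 for *Abcb1a* and for *Mfsd2a* and 0.0292 for *Slco1c1*, so the widened intervals of these transporter genes included equal reads.

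Barrier genes outside the members were mixed. Of 17 other barrier and norrin-Wnt pathway genes with at least 20 reads, 8 were at least 2-fold higher, 1 was lower (*Fzd4*, the norrin receptor, 79 and 407 reads, named after its value was seen) and 8 lay within 2-fold. Over all genes compared, 23.3% were higher and 21.6% lower. Of the 17, 5 had 0 reads in Cd11c-lineage and met the minimum through Cd11c-active alone. The list's median log2 ratio was 0.48, and its sums were 16896 and 11506 reads, 1.67-fold (widened 1.34 to 2.08). The 3 with the most reads were *Tjp1*, the junction scaffold ZO-1 (3436 and 3753), *Lrp5*, a Wnt co-receptor (2807 and 2505), and *Slc7a5*, the large neutral amino acid transporter (3058 and 653, 5.33-fold, widened 2.48 to 13.4). *Tjp1* and *Lrp5* lay within 2-fold and are used by many cell types.

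Mural genes were fewer in reads and split in direction. The 8 measured members summed to 790 and 180 reads, 4.99-fold (counting 4.24 to 5.91; widened 1.21 to 53.4). Without *Cspg4* the sums were 410 and 180 reads, 2.59-fold (widened 0.466 to 29.9), and without *Cspg4*, *Anpep* and *Tagln*, which other cells also express, 395 and 31 reads, 14.5-fold (widened lower end 1.04). *Cspg4*, the NG2 proteoglycan of pericytes and of oligodendrocyte precursors, had 380 against 0 (at least 144-fold). *Rgs5*, a regulator of G-protein signalling that is abundant in pericytes, had 253 against 0 (at least 96.0-fold). *Pdgfrb*, the receptor for the endothelial ligand, had 92 against 0 (at least 34.9-fold). *Abcc9* and *Kcnj8*, which encode the subunits SUR2 and Kir6.1 of the pericyte potassium channel, had 38 and 12 reads against 0 (at least 14.4-fold and 4.55-fold). *Kcnj8* was below the minimum of 20 reads.

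The other mural members had more reads in Cd11c-lineage. *Anpep*, CD13, an aminopeptidase of pericytes that myeloid cells also carry, had 15 and 125 reads, 7.32-fold more in Cd11c-lineage (counting 4.27 to 13.5). Its widened interval, as Cd11c-active over Cd11c-lineage, had no lower end and reached 6.06, so it spans equal reads and the opposite direction. *Notch3*, the Notch receptor of mural cells, had 0 and 31 (at least 9.08-fold lower in Cd11c-active), and *Tagln*, the smooth muscle protein SM22, had 0 and 24 (at least 7.03-fold lower). From 20 to under 100 reads, 37.6% of all genes had 0 reads in Cd11c-active and 40.8% had 0 in Cd11c-lineage, so *Notch3*, *Tagln*, *Abcc9*, *Pdgfrb*, *Esm1* and *Slco1c1* lie in a range where an absent gene in either library was common.

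A second list of 22 mural genes had 7 in the table. Of these, 5 were at least 2-fold higher in Cd11c-active and 1 lower (*Gucy1b1*, 0 and 27 reads, named after its value was seen). Over all genes compared, 23.3% were higher and 21.6% lower. With 0 reads in Cd11c-lineage, 3 of the 7 met the minimum of 20 reads through Cd11c-active alone. The sums were 638 and 109 reads, 6.66-fold (widened lower end 1.22), and the median log2 ratio was 4.33, a gene at 0 again counted as 3 reads. The 3 with the most reads were *Gucy1a1*, a subunit of the nitric oxide receptor (174 and 8), the transcription factor gene *Foxc1* (150 and 0) and *Gja4*, connexin 37, which arterial endothelium also makes (130 and 0). The fibroblast list of 6 collagens, proteoglycans and *Pdgfra* was not analysed here, as none of its genes is in the table used.

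**Figure D3:**
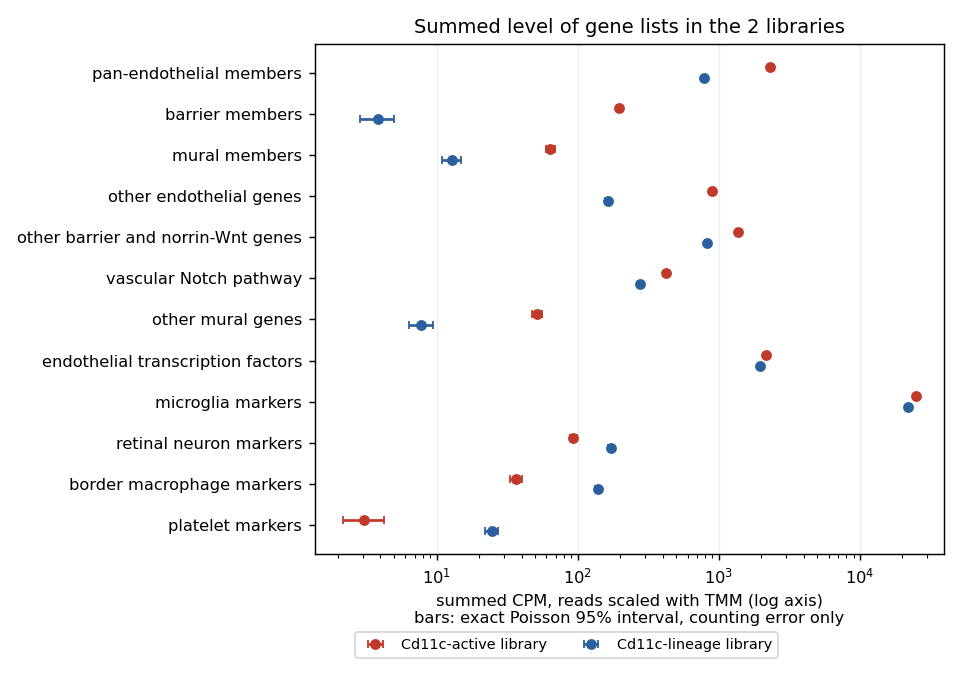
Summed CPM (log axis, reads scaled with TMM) of each gene list in the Cd11c-active (red) and Cd11c-lineage (blue) libraries, with exact Poisson 95% intervals that cover counting error only. The barrier members show the widest gap, 196 against 3.84 CPM, while microglia markers and endothelial transcription factors nearly coincide and neuron, border macrophage and platelet markers are higher in Cd11c-lineage.

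Levels were compared between genes per kilobase of the longest annotated transcript, as CPM (reads scaled to a common library size) per kilobase. In Cd11c-active *Cd34* was highest among the members at 169, then *Igfbp7* at 90.6, *Sparcl1* and *Ecscr* both at 53.1 and *Pdgfb* at 52.1. *Cd93* followed at 48.4 and *Pecam1* at 40.6. *Cldn5* at 37.5 stood near *Serpinh1* at 35.4 and *Cdh5* at 34.9, a chaperone and junction genes at similar levels per length, with 1 library and thus no spread to compare them by.

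The mural genes were lower on this scale. *Rgs5*, at 5.00, was the highest mural member and reached 14.4% of the *Cdh5* level, followed by *Cspg4* at 3.79 and *Pdgfrb* at 1.37. The channel subunits *Abcc9* and *Kcnj8* stood at 0.410 and 0.381. *Csf1r*, the receptor on which microglia depend, had 1362 CPM per kilobase in Cd11c-active, and *Cdh5* reached 2.56% of it there and 0.256% of it in Cd11c-lineage.

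In Cd11c-lineage the order of the members' levels per length was *Cd34* (140), *Ecscr* (68.9), *Pdgfb* (51.6), *Eng* (15.5) and *Pecam1* (10.8), and *Cdh5* was at 3.58. The first 4 are the genes within 2-fold between the libraries. *Anpep* was at 2.34 and *Tagln* at 1.07, and of the other mural members *Notch3* (0.275) alone had reads there. The floor of 3 reads used for a gene at 0 equals 0.214 CPM in Cd11c-lineage and 0.243 CPM in Cd11c-active, for independent reads.

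Further endothelial genes come from a list that shares no gene with the members and was also chosen with earlier results known. Of 21 with at least 20 reads, 18 were at least 2-fold higher in Cd11c-active and 0 were lower, beside 23.3% and 21.6% over all genes compared. In 14 of the 21 there were 0 reads in Cd11c-lineage, so these met the minimum through the library in which they were high, and the counts describe the list only. The sums were 11031 and 2300 reads, 5.46-fold (widened 3.58 to 8.33), and the median log2 ratio was 5.78, a gene at 0 again counted as 3 reads, beside 0.01 over all genes compared. *Kdr*, the VEGF receptor VEGFR2, had 1926 and 311 reads (7.05-fold; widened 2.35 to 27.1) and *Tie1*, an orphan receptor of the TIE family, 1004 and 1. *S1pr1*, the sphingosine 1-phosphate receptor that microglia also express, had 2022 and 1588 reads, within 2-fold.

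In the vascular Notch pathway, 4 of 9 genes with at least 20 reads were at least 2-fold higher, 1 was lower (*Dll1*, 0 and 53 reads, named after its value was seen) and 4 lay within 2-fold. Over all genes compared, 23.3% were higher and 21.6% lower. The median log2 ratio of the 9 was 0.80. Under library totals 3 were higher, as *Hes1* (115 and 63 reads), a Notch target, then lay within 2-fold. *Notch1*, the receptor through which tip cells restrain their neighbours, had 2131 and 2179 reads, and *Lfng*, a glycosyltransferase that tunes Notch, 679 and 837. *Notch4*, the Notch receptor enriched in endothelium, had 1024 and 149, 7.82-fold (widened 1.67 to 67.5). Of these receptors *Notch1* was at similar reads in both libraries and *Notch4* was not, which describes single genes and not the pathway.

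**Figure D4:**
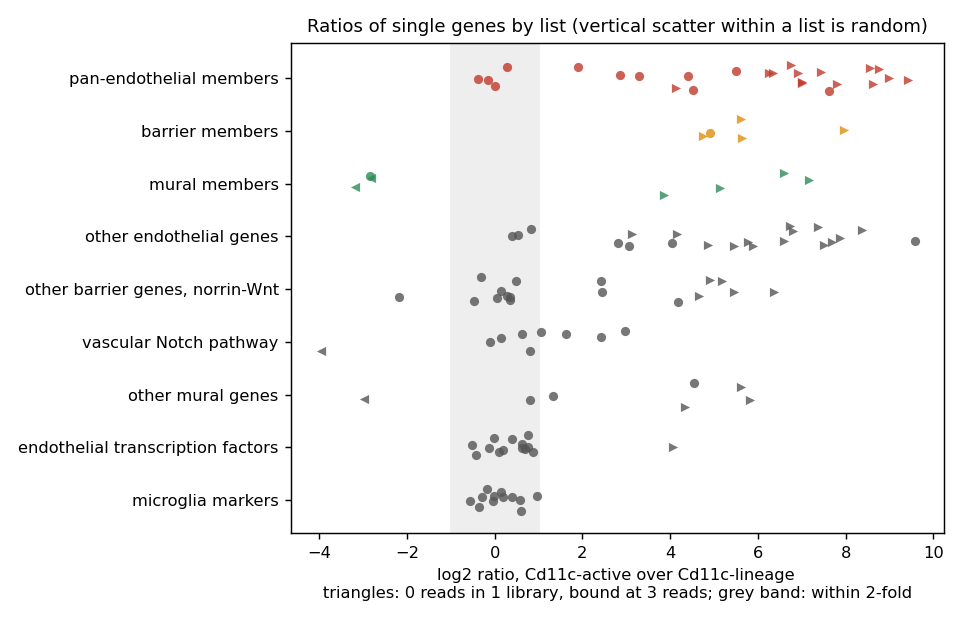
Log2 ratio of Cd11c-active over Cd11c-lineage for single genes with at least 20 reads, by list; triangles are genes with 0 reads in 1 library, placed at the bound from 3 reads, and the grey band is within 2-fold. Pan-endothelial members and the other endothelial genes extend to the right with a few genes inside the band, barrier members lie wholly to the right, mural members fall on both sides, and the 12 microglia markers stay inside.

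Markers of other cells are given beside the vessel genes. Their counts stand beside 23.3% of all genes compared at least 2-fold higher and 21.6% at least 2-fold lower. Of 9 retinal neuron genes 1 was at least 2-fold higher and 5 lower in Cd11c-active, with summed levels of 92.9 and 172 CPM (widened interval of the fold 0.260 to 1.03), and *Pou4f1*, *Pou4f2* and *Stmn2* were not analysed here. The border macrophage list had 36.4 and 140 CPM (widened 0.0951 to 0.714), with 0 of 5 genes higher and 4 lower, and *Lyve1*, *Cd163* and *F13a1* were at 0 in Cd11c-active. Of the 5 astrocyte genes 1 was in the table, *Slc1a3* with 73 and 642 reads (widened 0.00321 to 1.06), and *Gfap* and *Pax2* were not analysed here. Of the 5 measured Muller glia genes 2 were at least 2-fold higher, *Rlbp1* with 94 and 0 reads and *Vim* with 2069 and 1005, and 1 was lower, the same *Slc1a3*. *Hes5* was not analysed here. The part of these cells in the vessel transcripts was not tested.

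The members resembled other genes in length and differed somewhat in base composition. Their longest transcripts had a median of 3336 bases and 53.3% GC, against 3372 bases and 49.3% over all genes compared. After a trend of the log2 ratio with length and GC content was removed, 30 members were still at least 2-fold higher and 3 at least 2-fold lower. The authors' deposited table gives log2 fold changes of 3.15 for *Cdh5*, 1.77 for *Pecam1* and 0.14 for *Cd34*, and of 12.38 for *Cldn5*, where the value depends on how a count of 0 is handled.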

How the data were processed

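Members, gene lists and comparisons were chosen with earlier results of these data known. Bulk RNA of 2 sorted populations was sequenced from ribosome-depleted stranded libraries, per the labels' protocols. The authors deposited raw counts per gene and a log2 fold change with a log2 average CPM, per the file headers. The submitters' processing notes name cutadapt 3.5, STAR 2.7.9a, featureCounts 1.6.3, edgeR 4.0.16 and GRCm39. The annotation, strand setting and handling of duplicate reads are not given in the sources used here. Genes under 6 reads over both libraries are not in the table, and 0 columns had no mapped sample.

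TMM factors of 0.954 for Cd11c-active and 1.05 for Cd11c-lineage were computed with edgeR 4.0.16 in R 4.3.3. Folds were ratios of reads over effective library size and their 95% intervals were exact (Clopper-Pearson, on the split of a gene's reads). They cover counting error only, since reads may be PCR copies of 1 molecule. Calls used log2 ratios with 0.5 added to reads, at least 20 reads and an absolute value of at least 1. Widened intervals used reads divided by the overdispersion and rounded. No p-value was computed, since 1 library per group leaves no residual degrees of freedom. Transcript lengths from GENCODE M21 matched 13499 genes (99.6%), and the length and GC trend was fitted to 4605 genes with at least 1000 reads. Interval and fold calculations were tested on simulated data. All members are accounted for. Of the other vessel gene lists, the 3 genes with the most reads are named, with exceptions stated. Genes named from the marker lists of microglia and other cells were not picked by that rule. Printed promoters share no 31-base stretch with an annotated transcript of the gene. Alternatives were other scalings, minimum reads, 1 added to reads, trend removal and leaving out members. Software was Python 3.11.15, numpy 2.4.6, scipy 1.17.1, pandas 2.3.3 and matplotlib 3.10.9.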

Additional observations from a re-analysis of the deposited data

How the results depend on the processing

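No paired analysis was possible because each group has 1 library, and for the same reason no library could be left out. The number of members at least 2-fold higher was 26 to 31 over the alternatives run, and that of members lower was 3, except 1 (*Anpep*) with a minimum of 100 reads. Of 190 recomputed member ratios 0 crossed the 2-fold threshold and 2 changed sign, both of *Pdgfb* (library totals -0.12, trend removed -0.27). Under library totals the log2 ratio of the summed reads was 1.43 for pan-endothelial members (main 1.56) and 1.55 for all members (main 1.69). Without the member with the most reads it was 2.34 for pan-endothelial (without *Cd34*), 1.37 for mural (without *Cspg4*) and 2.47 for all members (without *Cd34*). The barrier sum gave no ratio that way, as 0 Cd11c-lineage reads remained without *Spock2*. Without members listed as also known from myeloid or other cells, a list that leaves *Vwf* in, it was 2.65 for the 14 pan-endothelial, 3.86 for the 5 mural and 3.03 for the 24 members left. Scaling by DESeq2 size factors, or without ribosomal and mitochondrial genes, left each sum within its counting interval. Depth limits members under 100 reads, where 0 reads in either library was common.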
